A study of Homo sapiens with 4 samples.

Results

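The genes described here are the 7 components of the apparatus that takes filtered proteins up into the proximal tubule, LRP2, CUBN, AMN, DAB2, CLCN5, OCRL and LRPAP1. They were found by their symbol among the 25992 gene names of the array and are covered by 9 of its 34127 probes. The data are 4 arrays of human proximal tubular cells (HPTCs), with 2 replicates (rep 1 and rep 2) under the label HK-2 and 2 under the label RPTEC/TERT1. HK-2 is a cell line immortalised with papillomavirus genes and RPTEC/TERT1 a cell line immortalised with telomerase. All 4 cultures had spent 24 h without serum or supplements and a further 24 h exposed to IL-1β at 10 ng/mL together with the SGLT2 inhibitor empagliflozin (Empa) at 500 nM. Cultures without Empa or without IL-1β were not analysed here, so the values show the apparatus under both agents and no effect of either, and the question they answer is how the 2 cell lines compare.

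In the kidney, megalin (the product of LRP2) and cubilin (CUBN) sit on the brush border and bind albumin, vitamin carriers, hormones and many other filtered proteins. Cubilin has no membrane span of its own and depends on amnionless (AMN) to reach the surface, while the adaptor DAB2 ties the receptors to clathrin. The chloride-proton exchanger ClC-5 (CLCN5) supports the acidification of endosomes, the phosphatase OCRL controls their inositol lipids, and the chaperone RAP (LRPAP1) keeps megalin from binding ligands too early in the secretory route. Inherited loss of several of these components leads to tubular proteinuria.

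Of the 7 members, 6 were well above background on all 4 arrays, and CUBN on none. The sequences of the probes for the receptors and for CLCN5 are shown here. LRP2 is read by a repetitive probe, and neither CUBN probe gave a signal well above background. The probes of CLCN5 differ in how far their levels spread. Whether the sequences bear on any of these readings was not tested. Each line holds 30 of the 60 bases of a probe, 5′ to 3′, on the strand of the transcript. Capitals mark the ATGG repeat in LRP2, GTGAGT in the first CUBN probe and AATAAA in the second CUBN probe and in the first CLCN5 probe, and the last probe carries no mark. The stretches and marks were chosen after the sequences had been read.
LRP2, A_33_P3244728, probe bases 29 to 58: aatgaATGGATGGATGGATGGATGGatgaa
CUBN, A_33_P3241891, probe bases 31 to 60: taaaacccaaacagtgGTGAGTatgattgt
CUBN, A_33_P3219939, probe bases 23 to 52: tcaattacacatAATAAAcattattgaatt
CLCN5, A_33_P3415092, probe bases 23 to 52: aattatgcatgtAATAAAgcacagccttat
CLCN5, A_33_P3415087, probe bases 1 to 30: gtgtgttgtctctttcctacaagttaacca
The ATGG repeat of the LRP2 probe runs for 20 bases. At least 4 copies in a row were present on this strand in 1 of the 34127 probes, which is this one, and on either strand in 5. AATAAA, letters that signal the cleavage and polyadenylation of many transcripts, was present on this strand in 7.67% of all probes and on either strand in 11.1%. GTGAGT, letters that often begin an intron, was present on this strand in 1.09% and on either strand in 2.18%. These are matches of letters only.

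Before the members are described, the arrays themselves need an account. Over 17928 genes, each detected well above background by 1 or more arrays, HK-2 rep 1 correlated at 0.980 with RPTEC/TERT1 rep 2, and HK-2 rep 2 at 0.976 with RPTEC/TERT1 rep 1, while arrays of the same label correlated at 0.865 and 0.855. The arrays are thus most alike across the labels, and every value below is given for the array labelled as stated. Whether labels were exchanged was not tested, and if they were, the means, SDs and differences by label would not compare HK-2 with RPTEC/TERT1 cells. Genes are not independent replicates, so these correlations describe the arrays. The 75th percentile of the signal ranged from 393 to 748 over the arrays, and 59.2 to 64.9% of spots were well above background. Since 2 arrays stand for each label, the number of arrays limits the precision.

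The labelled cell type was checked against 22 proximal tubule markers, of which 10 were well above background on all 4 arrays and 7 on none. PAX8, DPP4 and GGT1, a lineage factor and enzymes of the brush border, were among the 10. The organic anion transporter SLC22A6, the sodium-proton exchanger SLC9A3, the transcription factor HNF4A, the enzymes PCK1 and FBP1 and the amino acid transporter SLC7A9 were among the 7. The summed signal of the list, in units of the 75th percentile of the array, was 28.5 on HK-2 rep 1, 8.49 on HK-2 rep 2, 13.4 on RPTEC/TERT1 rep 1 and 23.1 on RPTEC/TERT1 rep 2. PAX8 and DPP4 made up 24.4, 5.30, 9.38 and 18.7 of these sums, and the other 20 markers gave 4.08, 3.19, 3.98 and 4.44, so the spread of the sum lay in those 2 genes. Of the 10 markers detected on all arrays, 4 (SLC22A8, SLC13A3, DPP4 and PAX8) were higher on HK-2 rep 1 and RPTEC/TERT1 rep 2 than on both other arrays, and 5 (SLC4A4, GGT1, MME, CDH6 and GATM) were lower there. The aminopeptidase ANPEP and the transporter subunit SLC3A1 were well above background on HK-2 rep 1 and RPTEC/TERT1 rep 2 and on neither of the other arrays.

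Other cell types were checked the same way. None of 4 collecting duct markers was well above background on any array, nor were PDGFRB and COL3A1 of the fibroblast list. COL1A1 of that list was well above background on 3 arrays, and both leukocyte probes, PTPRC and CD68, were on all 4. The summed leukocyte signal lay between 0.741 and 1.64. The epithelial list, led by EPCAM and KRT18, lay between 12.1 and 28.0. Of this list, EPCAM, KRT8 and KRT18 were well above background on all 4 arrays. CDH1 was so on HK-2 rep 1 and RPTEC/TERT1 rep 2 and on neither of the other arrays. For 13 genes of cell division with values on all arrays, the summed signal was 7.36 on HK-2 rep 1, 104 on HK-2 rep 2, 105 on RPTEC/TERT1 rep 1 and 7.94 on RPTEC/TERT1 rep 2. The part of any of these lists in the members' values was not tested, and on whole cultures fewer cells of a kind cannot be told apart from less RNA per cell.

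**Figure D1:**
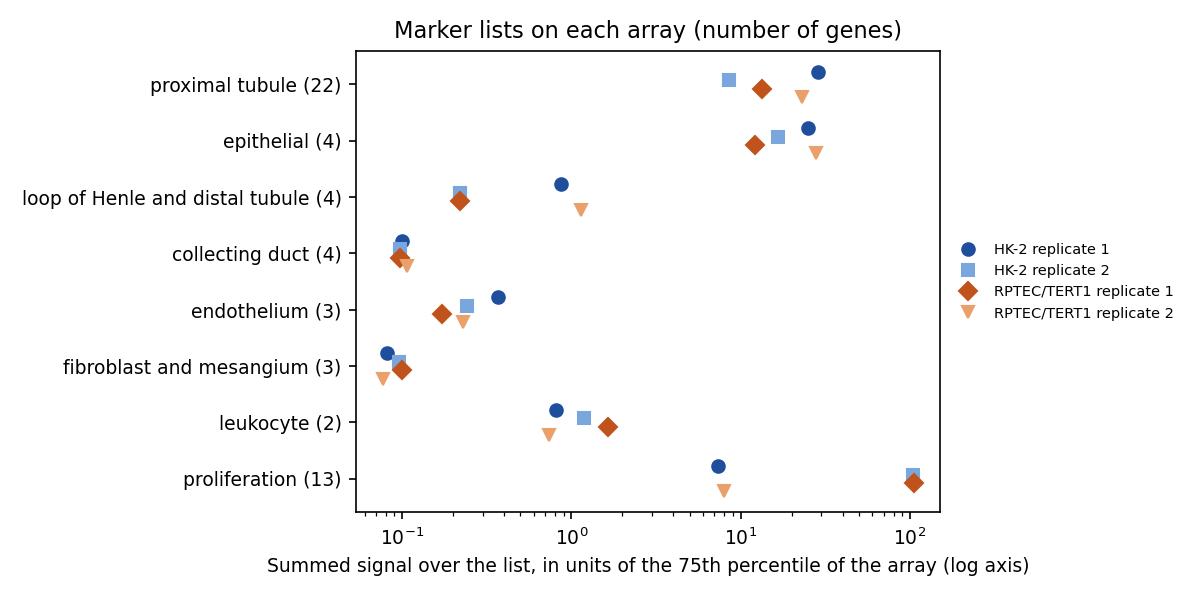
Summed signal of 8 marker lists on each array, in units of the 75th percentile of the array, on a log axis, with the number of genes in brackets and 1 symbol per array. The proliferation list lies at 104 and 105 on HK-2 rep 2 and RPTEC/TERT1 rep 1 and at 7.36 and 7.94 on the other arrays.

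Levels are given from here on as log2 of the processed signal over the 75th percentile of the same array, so that 0 is a signal at that percentile. A spot was well above background where the scanner software marked it so. Each member probe was printed once on an array, and none of its spots was saturated or marked as an outlier. No level is set against that of another probe, because probes differ in how strongly they bind.

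The receptor LRP2 was detected at a low signal in both cell lines. Its probe lies on chromosome 2 at 169983769 to 169983828 on the minus strand of GRCh37, the build of the probe positions. The level was -3.34 on HK-2 rep 1, -1.72 on HK-2 rep 2, -2.77 on RPTEC/TERT1 rep 1 and -3.06 on RPTEC/TERT1 rep 2. HK-2 rep 2 was thus the highest array and HK-2 rep 1 the lowest, with both RPTEC/TERT1 arrays between them, so the cell lines overlapped. The signal was 4.09 times the lowest signal marked as well above background on HK-2 rep 1 and 22.1 times on HK-2 rep 2, and it exceeded 99.3% of the negative control spots on the first of these and 100% on the other arrays. The mean was -2.53 ± 1.15 (SD, n = 2) in HK-2 and -2.91 ± 0.21 (SD, n = 2) in RPTEC/TERT1, and the difference of 0.39 had an SE of 0.70 (95% interval -1.52 to 2.29, limma adjusted p = 1). The arrays spanned 1.62, or 3.08-fold, and 0.57 without HK-2 rep 2. After normexp background correction and quantile normalization they spanned 0.71 in the same order, whereas in the deposited log2 values HK-2 rep 1 was the highest array. In those values the labels did not overlap, with -0.94 and -1.56 on HK-2 reps 1 and 2 and -2.00 and -2.08 on RPTEC/TERT1 reps 1 and 2.

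CUBN was not well above background on any array. The probe A_33_P3241891, on chromosome 10 at 17165414 to 17165473 on the minus strand, had a background-subtracted signal of -0.52 on HK-2 rep 1, -6.18 on HK-2 rep 2, -1.59 on RPTEC/TERT1 rep 1 and -0.69 on RPTEC/TERT1 rep 2. The probe A_33_P3219939, at 16865965 to 16866024 on the same strand, had a signal of 11.2 on HK-2 rep 1, -1.89 on HK-2 rep 2, -0.051 on RPTEC/TERT1 rep 1 and 8.26 on RPTEC/TERT1 rep 2. The first probe was below 0 on all arrays, and the second was above 0 on HK-2 rep 1 and RPTEC/TERT1 rep 2. On those arrays its signal was 2.17 and 3.57 times the 95th percentile of the negative controls, with 96.7% and 98.0% of them below it. The probes start 299449 bases apart on the genome. The lowest signal marked as well above background was between 0.90 and 2.42% of the 75th percentile. On HK-2 rep 1 and RPTEC/TERT1 rep 2 the second probe was 1.17 and 1.35 times that lowest signal and still was not marked. The limit for CUBN on those arrays thus lay above the lowest marked signal, and CUBN was neither tested nor given a fold.

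AMN, the membrane partner of cubilin, was detected on all 4 arrays although CUBN was not. Its probe, A_23_P48455, lies on chromosome 14 at 103397053 to 103397112 on the plus strand. The level was 1.32 on HK-2 rep 1, 1.41 on HK-2 rep 2, 0.15 on RPTEC/TERT1 rep 1 and 2.84 on RPTEC/TERT1 rep 2. The HK-2 arrays lay close together and between the RPTEC/TERT1 arrays, which were the highest and the lowest. The mean was 1.36 ± 0.064 (SD, n = 2) in HK-2 and 1.50 ± 1.90 (SD, n = 2) in RPTEC/TERT1, and the difference of -0.13 had an SE of 1.01 (95% interval -2.87 to 2.60, limma adjusted p = 1). The arrays spanned 2.69, or 6.44-fold, and 9.89% of the 16468 genes tested spanned at least as much. Without RPTEC/TERT1 rep 2 the span was 1.26 and HK-2 was higher by 1.21.

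The adaptor DAB2 spanned 2.70, or 6.49-fold, over the arrays, and 9.82% of the genes tested spanned at least as much. Its probe, A_33_P3338928, lies on chromosome 5 at 39371825 to 39371884 on the minus strand. The level was 1.92 on HK-2 rep 1, -0.54 on HK-2 rep 2, -0.77 on RPTEC/TERT1 rep 1 and 1.83 on RPTEC/TERT1 rep 2. One array of each label was high and the other low, with a gap of 2.37 (5.19-fold) between the lower of the high arrays and the higher of the low ones. The mean was 0.69 ± 1.74 (SD, n = 2) in HK-2 and 0.53 ± 1.84 (SD, n = 2) in RPTEC/TERT1, and the difference of 0.16 had an SE of 1.30 (95% interval -3.35 to 3.67, limma adjusted p = 1). On the arrays on which DAB2 was high, 4 of the 10 tubule markers detected on all arrays were high, PAX8 and DPP4 among them, and 5 were low. The summed signal of the cell division list was low there too. The part of these markers and genes in the DAB2 level was not tested.

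The upstream sequences of DAB2 and AMN are shown because these members spanned the most. Each is the 250 bases before the start of the gene in RefSeq (GRCh38.p14), 5′ to 3′ on the strand of the gene. All 7 members were present in that table, with 10 promoter entries, and 15 motifs were searched in them on both strands. The genes and the motif marked were chosen after the levels and the matches were known. Capitals mark the E-box CACGTG in AMN, and the DAB2 sequence carries no mark, although searched motifs matched there too, among them GGGCGG.
DAB2, chr5:39424981-39425230, minus strand: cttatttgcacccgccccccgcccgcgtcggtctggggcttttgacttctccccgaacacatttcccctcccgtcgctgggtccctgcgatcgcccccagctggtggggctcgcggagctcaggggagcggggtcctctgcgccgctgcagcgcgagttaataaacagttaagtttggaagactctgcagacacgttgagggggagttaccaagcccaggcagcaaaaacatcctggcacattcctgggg
AMN, chr14:102922413-102922662, plus strand: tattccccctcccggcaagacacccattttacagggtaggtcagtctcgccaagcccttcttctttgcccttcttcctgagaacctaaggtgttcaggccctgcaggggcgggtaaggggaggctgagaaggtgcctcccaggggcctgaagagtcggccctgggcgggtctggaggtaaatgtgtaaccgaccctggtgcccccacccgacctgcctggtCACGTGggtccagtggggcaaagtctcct
CACGTG began 29 bases before the start of AMN, was also in a CLCN5 promoter, within a longer palindrome that was also searched, and was present in 6.34% of the 35116 promoters of this length. GGGCGG, the core of a GC box, was in 6 of the 10 member promoters, of LRP2, LRPAP1, DAB2, AMN and CLCN5, and in 42.6% of all. The AP-1 motif TGANTCA was in 1 member promoter, of CLCN5, and in 6.57% of all, and an NF-kappaB motif was in none of the 10 and in 0.527% of all. No statement on binding can be drawn from such matches.

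The exchanger CLCN5 was low in signal and was read by 2 probes that start 6845 bases apart on the plus strand of chromosome X. A_33_P3415092, at 49863833 to 49863892, had levels of -1.43 on HK-2 rep 1, -2.00 on HK-2 rep 2, -2.11 on RPTEC/TERT1 rep 1 and -1.80 on RPTEC/TERT1 rep 2. A_33_P3415087, at 49856988 to 49857047, had levels of -2.01 on HK-2 rep 1, -4.26 on HK-2 rep 2, -3.90 on RPTEC/TERT1 rep 1 and -2.50 on RPTEC/TERT1 rep 2. Both probes were highest on HK-2 rep 1 and next highest on RPTEC/TERT1 rep 2, but the first spanned 0.67 and the second 2.25, so they disagreed in size. The gene's span of 1.41 fell to 0.64 after normexp and quantile normalization and to 0.67 with the brightest probe alone. Averaged over the probes, the mean was -2.43 ± 1.00 (SD, n = 2) in HK-2 and -2.58 ± 0.60 (SD, n = 2) in RPTEC/TERT1, and the difference of 0.15 had an SE of 0.70 (95% interval -1.75 to 2.05, limma adjusted p = 1).

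OCRL, the endosomal phosphatase, was high on the arrays on which DAB2 was low. Its probe, A_23_P32903, lies on chromosome X at 128726414 to 128726473 on the plus strand. The level was 1.12 on HK-2 rep 1, 2.18 on HK-2 rep 2, 1.88 on RPTEC/TERT1 rep 1 and 0.98 on RPTEC/TERT1 rep 2. Each cell line again had 1 array in the upper and 1 in the lower pair of values, and the labels overlapped. The mean was 1.65 ± 0.75 (SD, n = 2) in HK-2 and 1.43 ± 0.64 (SD, n = 2) in RPTEC/TERT1, and the difference of 0.22 had an SE of 0.63 (95% interval -1.50 to 1.94, limma adjusted p = 1). The span was 1.20, which 42.4% of the genes tested reached.

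LRPAP1, the chaperone of megalin, spanned the least of the tested members. Its probe, A_23_P29851, has 60 bases placed over 4773 bases of the minus strand of chromosome 4, from 3521871 to 3526643. The level was 1.03 on HK-2 rep 1, 0.14 on HK-2 rep 2, 0.11 on RPTEC/TERT1 rep 1 and 1.00 on RPTEC/TERT1 rep 2. The arrays fell into the same high and low pairs as for DAB2, with a span of 0.92 that 57.6% of the genes tested reached. The low pair lay 0.025 apart and the high pair 0.026. The order within the pairs changed after normexp and quantile normalization and in the deposited log2 values. The mean was 0.58 ± 0.63 (SD, n = 2) in HK-2 and 0.56 ± 0.63 (SD, n = 2) in RPTEC/TERT1, and the difference of 0.025 had an SE of 0.60 (95% interval -1.60 to 1.65, limma adjusted p = 1).

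**Figure D2:**
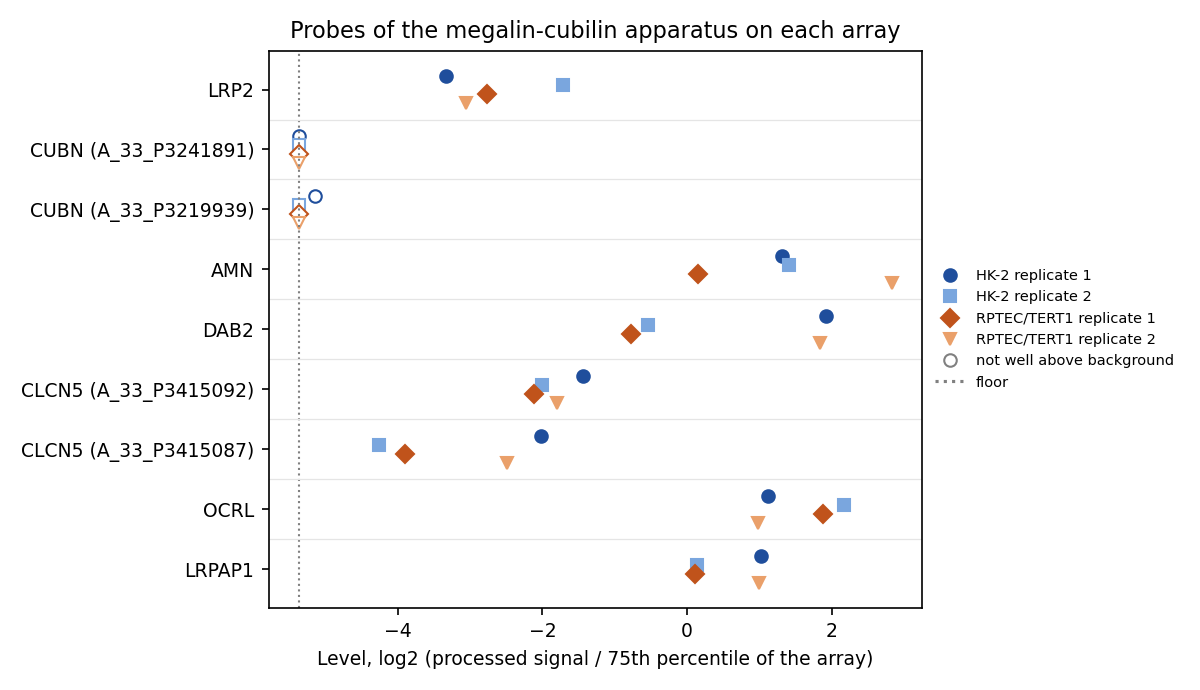
Level of each of the 9 member probes on each array, as log2 of the processed signal over the 75th percentile of the array, with 1 symbol per array, open where the spot was not well above background, and a dotted line at the floor of -5.37. DAB2 lies at 1.92 and 1.83 on HK-2 rep 1 and RPTEC/TERT1 rep 2 and below 0 on the other arrays, OCRL is ordered the other way, and both CUBN probes lie at or near the floor.

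None of the 6 tested members differed between the cell lines by limma at an adjusted p under 0.05, where 0% of the 16468 genes tested did. None had an unadjusted p under 0.05 either, against 23 genes (0.14%), and the smallest unadjusted p of a member in limma was 0.611, for LRP2. The labels overlapped for all 6 members, as they did for all but 7.17% of the genes tested, so the overlap is not particular to the members. For LRP2 the overlap depended on the processing, since in the deposited log2 values the labels did not overlap. The intervals were wide, and that of DAB2 includes differences of over 3 on the log2 scale in either direction, so these arrays do not show that the cell lines express the apparatus alike. An exact two-sided permutation test of 2 arrays against 2 cannot give a p below 0.333.

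Within a replicate number the members differed more than their means did. That follows from opposite signs, since the difference of the means is the average of the differences within the replicate numbers. In replicate 1, HK-2 was higher than RPTEC/TERT1 by 2.70 for DAB2, 1.28 for CLCN5, 1.17 for AMN and 0.92 for LRPAP1. In replicate 2 the same genes gave -2.37 for DAB2, -0.98 for CLCN5, -1.43 for AMN and -0.87 for LRPAP1. LRP2 and OCRL ran the other way, with -0.57 and -0.76 in replicate 1 and 1.34 and 1.20 in replicate 2. All 6 members thus had opposite signs in the replicate numbers, as 85.8% of all genes tested did. In the deposited log2 values, however, LRP2 was higher on HK-2 in both replicate numbers. The replicate number is also the scan date, so the within-number values are also those within a scan date.

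**Figure D3:**
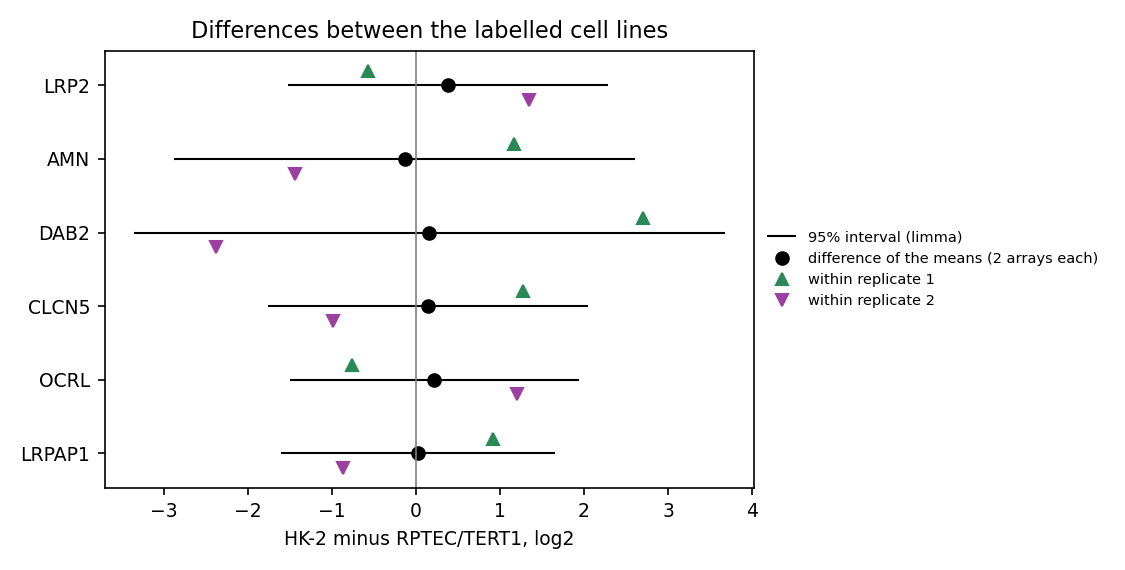
Difference of HK-2 minus RPTEC/TERT1 for each tested member on the log2 scale, as the difference of the means of 2 arrays each with its 95% limma interval (black) and within replicate 1 and replicate 2 (triangles). Every interval includes 0, and the triangles of a member lie on opposite sides of 0, for DAB2 at 2.70 and -2.37.

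The spans of the members over the arrays had a median of 1.52, and the median over all genes tested was 1.05. DAB2 and AMN spanned 2.70 and 2.69, LRP2, CLCN5 and OCRL lay between 1.20 and 1.62, and LRPAP1 lay below the median of all genes.

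**Figure D4:**
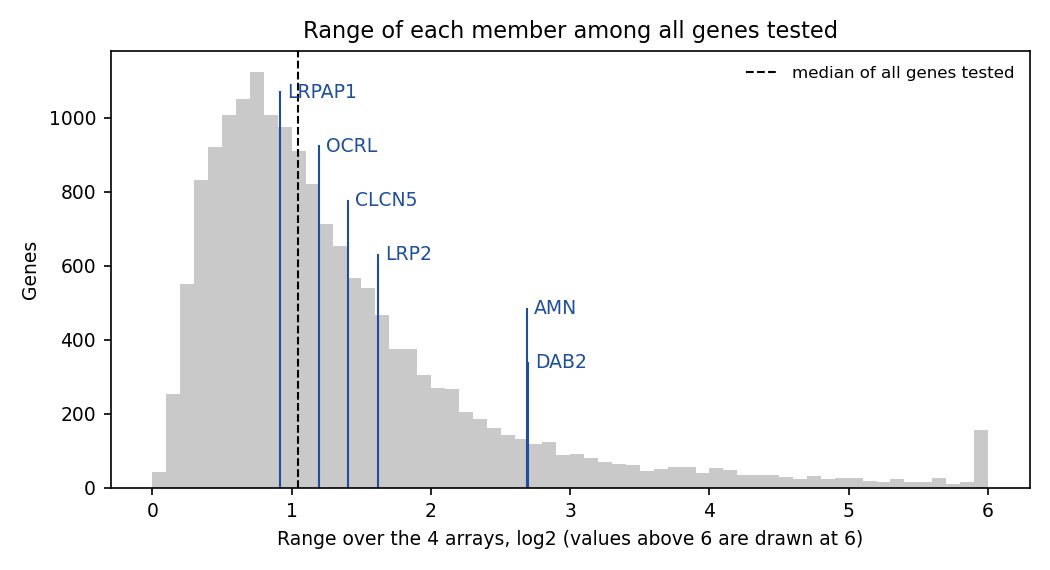
Number of genes by their range over the 4 arrays on the log2 scale, for the 16468 genes tested (grey), with the 6 tested members as blue lines whose heights carry no value and the median of all genes as a dashed line. DAB2 and AMN lie at 2.70 and 2.69, and LRPAP1 at 0.92 lies below the median of 1.05.

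Other genes of the route were taken from a list of 78, in groups of receptors of the LDL receptor family, adaptors and clathrin coat, early and recycling endosome, endosomal acidification, carriers with their handling, and receptor shedding with transcription factors. Of these, 73 had a value on all arrays, 68 were tested, and 4 were well above background on no array. By limma 0 of the 68 passed at an adjusted p under 0.05 in either direction, and 0 had an unadjusted p under 0.05. The median difference was -0.035, beside 0.017 for all genes tested. In replicate 1, 46 of the 68 (67.6%) were higher on HK-2, beside 54.6% of all genes, and in replicate 2, 17 of 68 (25.0%) were, beside 46.4% of all. The median difference was 0.61 in replicate 1 and -0.59 in replicate 2, beside 0.12 and -0.076 for all genes.

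By group, the counts within the replicate numbers were as follows. Of the 11 tested genes of receptor shedding and transcription, all 11 were higher on HK-2 in replicate 1 and 0 in replicate 2, with medians of 0.82 and -0.80. Of the 10 acidification genes, 8 were higher on HK-2 in replicate 1 and 1 in replicate 2, with medians of 0.90 and -0.94. The 13 endosome genes gave 9 and 3, and the 17 adaptor and clathrin genes 9 and 5. The 9 receptors of the LDL receptor family gave 5 and 4, and the 8 carrier genes 4 and 4.

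The sorting receptor SORL1 had a level of 0.04 on HK-2 rep 1, -4.82 on HK-2 rep 2, -4.69 on RPTEC/TERT1 rep 1 and 0.13 on RPTEC/TERT1 rep 2. It was thus high where DAB2 was high, with a span of 4.95 that 2.06% of the genes tested reached. LRP4, a further receptor of the family, ran the other way, at -1.80 on HK-2 rep 1, 0.38 on HK-2 rep 2, -0.12 on RPTEC/TERT1 rep 1 and -1.87 on RPTEC/TERT1 rep 2.

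PDZK1, a scaffold of the brush border, was low where DAB2 was high, with levels of -1.34 and 1.52 on HK-2 reps 1 and 2 and 1.04 and -0.86 on RPTEC/TERT1 reps 1 and 2. The motor MYO6, which carries coated vesicles inward, had 1.12 and -1.34 on the HK-2 arrays and -0.19 and 0.36 on the RPTEC/TERT1 arrays, in the same order of replicates. Of the endosome genes, the recycling factor EHD1 had 3.56 and 1.12 on HK-2 and 1.50 and 3.44 on RPTEC/TERT1. The early endosome GTPase RAB5B was ordered as EHD1 was, at 1.09 and -0.71 on HK-2 and 0.03 and 0.88 on RPTEC/TERT1.

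Of the proton pump, which acidifies the endosomes in which ClC-5 resides, ATP6V0A1 had levels of 3.84 and 1.99 on HK-2 reps 1 and 2 and 2.37 and 3.75 on RPTEC/TERT1 reps 1 and 2. ATP6V1B2 had 2.33 and 0.46 on HK-2 and 1.13 and 1.80 on RPTEC/TERT1. Both subunits were higher on HK-2 rep 1 and RPTEC/TERT1 rep 2 than on the other arrays. TFEB, a transcription factor of lysosomal genes, had 1.28 and -0.08 on HK-2 and -0.81 and 1.88 on RPTEC/TERT1, with a span of 2.69. The secretase subunit NCSTN had 4.51 and 3.18 on HK-2 and 4.06 and 3.97 on RPTEC/TERT1, so that its RPTEC/TERT1 arrays lay between those of HK-2.

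Of the carriers and their handling, TCN2, the plasma carrier of vitamin B12, had levels of -2.88 and -4.03 on HK-2 reps 1 and 2 and -3.68 and -2.83 on RPTEC/TERT1 reps 1 and 2. VDR, the vitamin D receptor, had -2.03 and -2.28 on HK-2 and -2.76 and -1.55 on RPTEC/TERT1. Both spanned little more than the median gene, at 1.20 and 1.22. The labels overlapped for all 12 of the list genes named to this point, as they did for all but 7.17% of the genes tested. They did not overlap for DNM2, APPL1 and OSTM1 of the same list. The vitamin A carrier RBP4, with -1.03 on HK-2 rep 1 and -1.44 on RPTEC/TERT1 rep 2, was at the floor and not well above background on the remaining arrays, and was singled out after its values were seen.

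**Figure D5:**
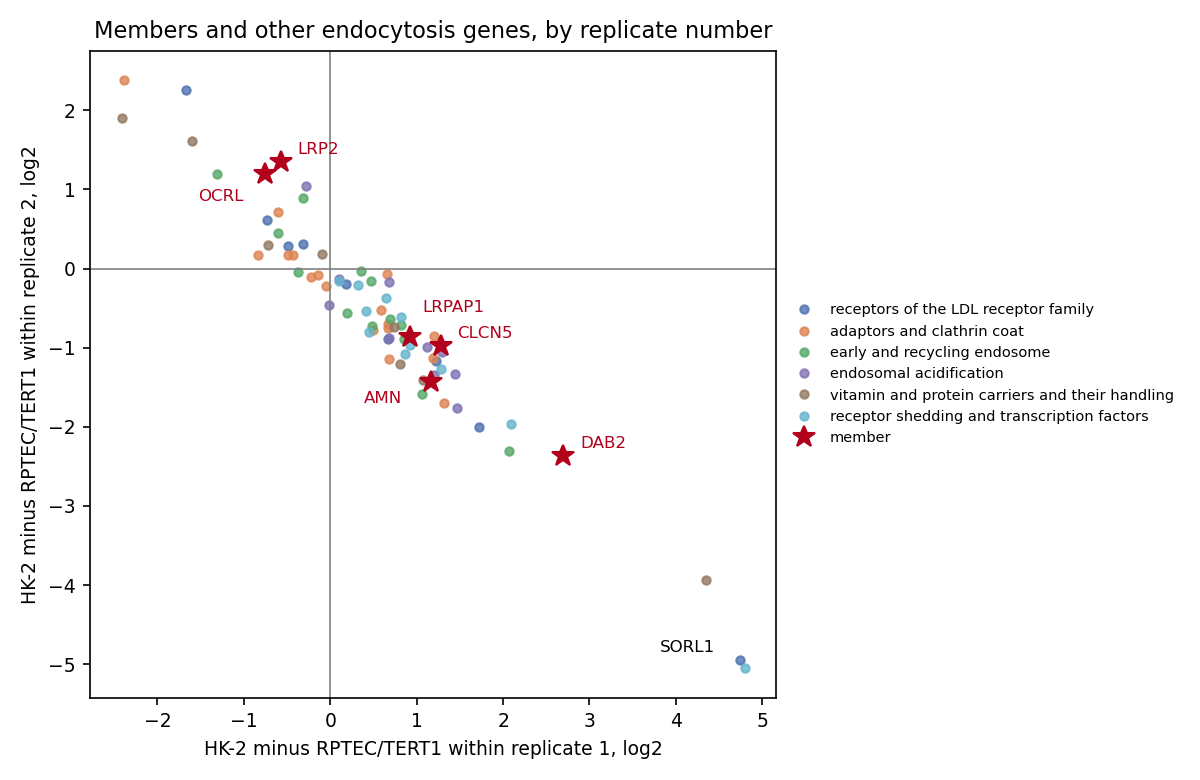
Difference of HK-2 minus RPTEC/TERT1 on the log2 scale within replicate 1 (horizontal) and within replicate 2 (vertical) for the 6 tested members (red stars) and the 68 tested genes of the endocytosis list (dots, coloured by group). Most genes lie to the upper left or lower right, where the signs oppose, with DAB2 at 2.70 and -2.37 and SORL1 at 4.74 and -4.95.

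The genes whose pattern over the 4 arrays was nearest to that of DAB2 were sought among 17771 genes outside the lists, without Y-linked genes and XIST, which were removed after a first ranking, by the root mean square difference of levels after each gene was centred on its own mean. They were RCBTB2 (0.051), the epithelial transcription factor KLF5 (0.059), CBLN3 (0.061), the cytokine subunit EBI3 (0.064) and the apoptosis inhibitor BCL2 (0.065). KLF5 had levels of 0.022 on HK-2 rep 1, -2.60 on HK-2 rep 2, -2.78 on RPTEC/TERT1 rep 1 and -0.19 on RPTEC/TERT1 rep 2. CBLN3 was well above background on 3 arrays and lay near the floor on HK-2 rep 2 and RPTEC/TERT1 rep 1, at -5.02 and -5.11. In all, 174 of the 17771 genes lay within 0.2 of DAB2 by this measure, which depends on the size of the changes as well as their order. Over 4 arrays the pattern is thus shared by many genes.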

How the data were processed

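Cy3-labelled cRNA from 4 cultures was read on 1-colour Agilent Human GE 4x44K v2 arrays. For RNA isolation the labels give an RNeasy kit and the methods an innuPREP kit. The methods speak of biological duplicates. The authors deposited spot intensities from Agilent Feature Extraction 9.5.3.1, read at 5 µm per pixel, with outlier pixels removed and the background subtracted and with no scaling from array to array. A second table that the authors deposited holds log2 values for those spots, whose scale and centring are not given in the sources used here and whose array medians were 8.33, 7.14, 6.75 and 6.72 for HK-2 replicates 1 and 2 and RPTEC/TERT1 replicates 1 and 2. They were used as an alternative only.

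Control spots and outlier spots were left out. Each processed signal, over its array's 75th percentile, was raised to a floor of 0.0242, and levels are log2 of the result (floor -5.37). That floor is the largest, among the arrays, of the smallest scaled signals marked well above background. Repeated spots were averaged by probe, and gene levels are means over the probes detected (well above background) by 1 or more arrays, or over all probes where none was. HK-2 and RPTEC/TERT1 were compared with limma 3.58.1 in R 4.3.3 for 16468 genes that 2 or more arrays detected, with Benjamini-Hochberg adjustment at 0.05. The step was tested on simulated data. The simulated noise was independent between arrays and smaller than the spread in these data, so that test does not give the power of these arrays. Alternatives were normexp (offset 50) with quantile normalization, quantile normalization alone, the deposited log2 values, no filter, a filter on all 4 arrays, the brightest probe, outlier spots kept, the replicate number as a block, and each array left out.

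The members, lists and rules were chosen with earlier results of these data known. The genes named are the members, the 2 genes of each group of the endocytosis list with the largest range among those detected on all arrays, and the 5 genes nearest to DAB2 by pattern, from which Y-linked genes and XIST were left out afterwards. Gene names come from the array design. The transcripts of 8 of the 9 member probes are listed under the same symbol in RefSeq (GRCh38.p14). Exon positions in GRCh37 were not analysed here, and some genes of the marker lists and 1 of the motifs are not reported here.

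The replicate numbers coincide with the scan dates, and each slide held a single array of the series, so that slide effects cannot be told apart from those of the array. The deviations of same-numbered arrays from the means of their labels correlated at -0.810 across genes, and the labels do not say that a number marks a shared batch, so the numbers were not taken to pair the arrays.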

Additional observations from a re-analysis of the deposited data

How the results depend on the processing

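By limma, 0 genes and 0 members were called under all 13 alternatives, with 3 to 241 genes and 0 members at an unadjusted p under 0.05. When the replicate number was made a block, 5 of 16468 genes had an unadjusted p under 0.05, and with the pairing crossed, an alternative chosen after seeing the data, 183 did. In this balanced design the replicate block cannot move a difference, so the median of the endocytosis list, -0.035, is the same with it. Over the other alternatives that median lay between -0.056 and -0.013, and between -0.34 and 0.30 with 1 array left out.

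Of 72 member differences under an alternative, 29 equal the main value because the alternative does not touch them, and of the other 43, 30 kept their sign and 13 reversed, and the smallest limma adjusted p was 0.999. After normexp LRPAP1 was -0.15. In the deposited log2 values DAB2 was -0.053 and LRPAP1 -0.29. With 1 array left out, so that the lone array of a label is assumed to vary like the others, the difference lay between -0.43 and 1.20 for LRP2, -1.48 and 1.21 for AMN, -1.14 and 1.47 for DAB2, -0.56 and 0.85 for CLCN5, -0.31 and 0.75 for OCRL and -0.42 and 0.47 for LRPAP1. The cause was not tested, other than that these fits hold fewer arrays. By member, the sign reversed under 4 of 12 alternatives for LRPAP1 and 3 for DAB2. It reversed under 2 each for CLCN5 and OCRL and 1 each for LRP2 and AMN. LRP2 and CLCN5 were low in signal, and CUBN, not well above background on any array, has no value among the 72. The part of low signal in the reversals was not tested.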
